A study of Homo sapiens with 8 samples.

Results

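The genes described here encode the proteins that let calcium into a neuronal cell, release it from the endoplasmic reticulum, pump it out again and pass its signal on through calmodulin. The list held 51 genes, the pore-forming and auxiliary subunits of voltage-gated calcium channels, the ryanodine and inositol trisphosphate receptors, the calcium pumps, the sodium-calcium exchangers, the calmodulin-dependent kinases and calcineurin. A gene was analysed where a row of the value table was annotated to its symbol alone, and 48 of the 51 had such a row, out of 18377 genes in all. CACNB4, CAMK1G and CAMK2B were not analysed here. The list was made by function, not by a threshold on these values, but with earlier results of these data known. Its shares of called genes beside those of all genes are therefore description only.

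RNA levels were read with 8 Affymetrix arrays (Human Gene 1.0 ST) in SHSY5Y, a human neuroblastoma cell line of neural crest origin, with 2 biological replicates in each of 4 groups. All groups were stable lines under puromycin selection on laminin-coated plates, titled PLKO or V71. NDF cells stayed in growth medium with 10% serum. DF cells were differentiated, first with 10 µM retinoic acid for 5 days and afterwards without serum in 2 nM BDNF for 3 days. The labels assign the shRNA to PLKO and the control to V71, while in the methods the pLKO.1-Puro vector is the control. The title code PLKO carries the name of that control vector, so titles and methods together go against the labels. The target of the shRNA, a further check, was not analysed here. The lines are therefore named by their title codes, and each difference between them is V71 minus PLKO. Only 1 stable line of each kind was measured, so a difference between lines is a difference between these particular lines, and p values measure the spread between their replicate cultures.

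Values are on the log2 scale of the robust multi-array average (RMA), on which a difference of 1 is a 2-fold difference. A difference was called when its adjusted p was under 0.05 and its fold at least 1.5, in a limma fit over all 28869 rows, and "rose", "fell", "higher" and "lower" are used of called differences. Errors are standard errors of the fit, with 2 arrays per group. Arrays of one group correlated at 0.9947 or more (Spearman) and arrays of different groups at 0.9931 or less. The lower quartile of an array lay between 3.002 and 3.063, and of the 48 calcium genes CACNA2D3 alone had group means below it, in all 4 groups.

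A voltage-gated calcium channel is built on an alpha 1 subunit, which forms the pore and senses the voltage, and carries beta and alpha 2 delta subunits that bring it to the membrane and set its gating. Calcium that enters can be amplified by ryanodine receptors, which open on calcium, and by inositol trisphosphate receptors, which open on a messenger made after receptor stimulation. SERCA pumps refill the reticulum, and plasma membrane pumps (PMCA) and sodium-calcium exchangers clear calcium from the cell. Calmodulin, once loaded with calcium, activates the CaM kinases and the phosphatase calcineurin. In sympathetic neuroblasts these proteins serve excitability, neurite growth and secretion.

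Between the lines, 6 of the 48 genes differed in at least one growth condition or in their change upon differentiation: the L-type pore gene CACNA1C, the auxiliary subunit gene CACNA2D1, the ryanodine receptor gene RYR2, the exchanger genes SLC8A1 and SLC8A3, and the kinase gene CAMK4. Those of the 6 with a single start in the RefSeq promoter table are printed with the sequence at that start, since their transcripts differ between groups. They are CACNA1C, CACNA2D1 and RYR2, each shown as the 250 bases before the start site in GRCh38.p14, read 5′ to 3′ on the strand of the gene. Capitals mark the GC box GGGCGG or its reverse complement CCGCCC, which may overlap.
CACNA1C promoter, chr12:2052737-2052986, plus strand: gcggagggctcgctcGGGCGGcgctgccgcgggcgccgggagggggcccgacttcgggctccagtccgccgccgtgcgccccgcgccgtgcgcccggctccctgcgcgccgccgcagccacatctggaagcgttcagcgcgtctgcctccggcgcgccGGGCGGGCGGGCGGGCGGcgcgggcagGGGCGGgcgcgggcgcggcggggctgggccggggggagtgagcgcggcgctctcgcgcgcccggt
CACNA2D1 promoter, chr7:82443957-82444206, minus strand: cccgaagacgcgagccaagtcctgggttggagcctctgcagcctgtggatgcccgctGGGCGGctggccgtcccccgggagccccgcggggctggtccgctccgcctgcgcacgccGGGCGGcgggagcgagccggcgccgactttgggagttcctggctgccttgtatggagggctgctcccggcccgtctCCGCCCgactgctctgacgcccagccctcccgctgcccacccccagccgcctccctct
RYR2 promoter, chr1:237041934-237042183, plus strand: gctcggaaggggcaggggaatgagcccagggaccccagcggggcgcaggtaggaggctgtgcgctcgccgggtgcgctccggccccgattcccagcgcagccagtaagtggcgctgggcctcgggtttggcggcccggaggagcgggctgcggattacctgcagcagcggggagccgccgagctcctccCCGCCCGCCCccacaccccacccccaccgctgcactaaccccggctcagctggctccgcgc
The CACNA1C window held 6 GC boxes, the CACNA2D1 window 3 and the RYR2 window 2, with a GC content of 85.6%, 75.6% and 75.2%. The GC box is a common element: it lay in 42.6% of the 35116 windows of this length in the table, and in 30 of the 53 windows of the 35 calcium genes with an entry. The retinoic acid receptor half-site AGGTCA, searched on both strands, was in none of the 3 printed windows, in 3 of the 53 windows of the calcium genes and in 12.1% of all windows. The cyclic AMP response element TGACGTCA was in none of the 53 windows, against 1.65% of all windows. The TATA box TATAAA was in 1 of the 53 windows, a window of SLC8A1, against 10.7% of all windows. These matches describe the letters of the windows only.

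Of the 48 genes, 2 were called higher and 2 lower in V71 in the NDF comparison, where 0.615% of all genes were called higher and 1.54% lower. In DF, 2 were called higher and 3 lower, against 1.81% and 1.26% of all genes. As a share of the 48 genes, these counts are 4.17% in each direction in NDF, and 4.17% higher and 6.25% lower in DF. Because the list was chosen with earlier results of these data known, these shares do not test it against all genes. The middle of the list lay near that of all genes: the median difference between the lines was 0.07 in NDF and 0.0347 in DF, beside 0.0123 and 0.00542 over all genes. The called genes are described next, ordered by role.

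**Figure D1:**
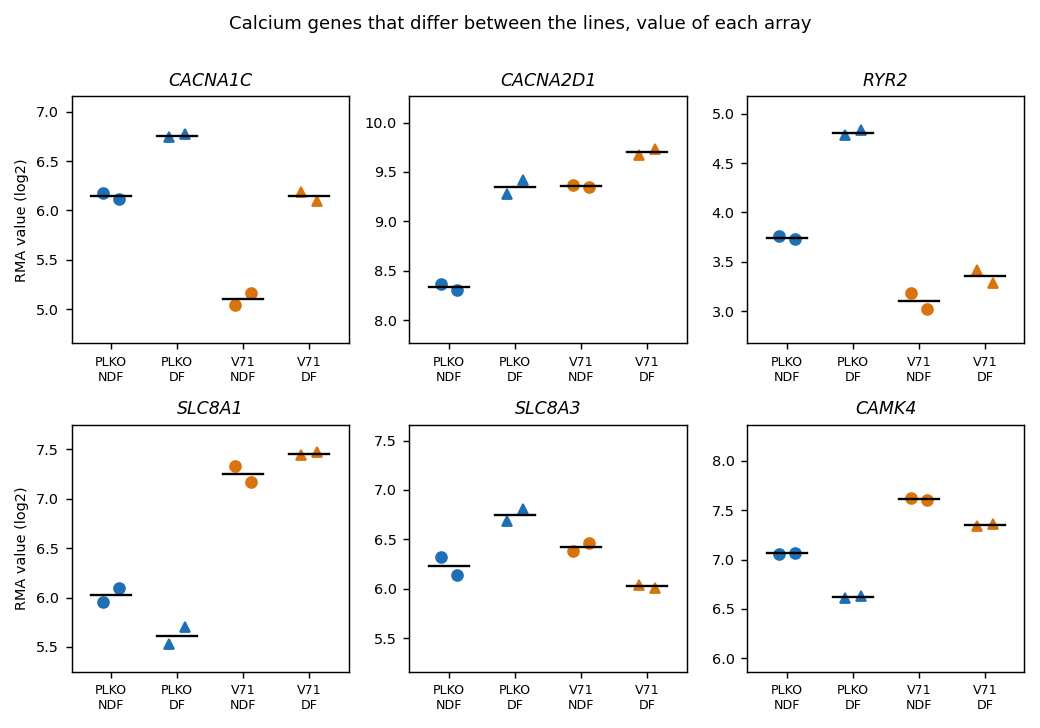
Value of each array (points; circles NDF, triangles DF; blue PLKO, orange V71) and group mean (bars) of the 6 calcium genes with a called difference between the lines or in their change upon differentiation. Vertical axes show RMA values (log2) and differ between genes; V71 lies below PLKO in both conditions for CACNA1C and RYR2, above it for CACNA2D1, SLC8A1 and CAMK4, and above it in NDF and below it in DF for SLC8A3.

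CACNA1C (probe set 7953040) encodes the pore of the Cav1.2 L-type channel, which couples depolarization to calcium signals that reach the nucleus. In NDF it stood at 6.18 and 6.12 on the PLKO arrays and at 5.04 and 5.16 on the V71 arrays. In DF the PLKO arrays gave 6.74 and 6.77 and the V71 arrays 6.19 and 6.10. Both V71 values lay below both PLKO values in each condition, and the differentiated V71 cells overlapped the undifferentiated PLKO cells. CACNA1C was lower in V71 by 2.075-fold in NDF (log2 difference -1.05 ± 0.0863, adjusted p = 0.000151), and in DF by a log2 difference of -0.61 (adjusted p = 0.00359). It rose upon differentiation in both lines, by 0.60 in PLKO (adjusted p = 0.00142) and by 1.05 in V71 (adjusted p = 4.71e-05). The changes of the lines differed by 0.44 (interaction, adjusted p = 0.193), which did not pass the test.

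A second row of CACNA1C, with a mean of 4.21, gave smaller differences between the lines. There the line difference was -0.39 in NDF (adjusted p = 0.246) and -0.48 in DF (adjusted p = 0.0858), and neither was called. The rise upon differentiation was called on both rows, with 0.85 in PLKO (adjusted p = 0.00286) and 0.75 in V71 (adjusted p = 0.00545) on the second. The rows of this gene therefore share the direction of all 4 differences and disagree on the call between the lines. With the mean over both rows in place of the brighter one, the DF difference fell short of the fold threshold at -0.55 (adjusted p = 0.0142).

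The other 7 pore genes showed no called difference between the lines, in values that ran from -0.20 to 0.12 in NDF and from -0.35 to 0.13 in DF. They include CACNA1A and CACNA1B, the pores of the P/Q-type and N-type channels that trigger transmitter release, CACNA1D, the second L-type pore measured, CACNA1E of the R-type channel, and the low-voltage T-type genes CACNA1G, CACNA1H and CACNA1I. CACNA1B, the N-type pore gene, gave 0.07 in NDF (adjusted p = 0.837) and 0.08 in DF (adjusted p = 0.772). CACNA1G gave -0.20 in NDF (adjusted p = 0.341) and CACNA1E gave -0.35 in DF (adjusted p = 0.186).

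CACNA2D1 (probe set 8140579) encodes the alpha 2 delta 1 subunit, the binding site of gabapentin, which raises the number of channels at the surface. Its values in NDF were 8.37 and 8.30 in PLKO and 9.37 and 9.35 in V71. In DF they were 9.28 and 9.42 in PLKO and 9.67 and 9.73 in V71. The V71 cells were above the PLKO cells in both conditions, and undifferentiated V71 cells stood within the range of differentiated PLKO cells. CACNA2D1 was higher in V71 in NDF (1.02 ± 0.0873, adjusted p = 0.000195), and the DF difference of 0.35 missed the test (adjusted p = 0.0516). It rose by 1.02 upon differentiation in PLKO (adjusted p = 4.82e-05), while the V71 change of 0.35 passed the p threshold (adjusted p = 0.0275) and not the fold. The change in V71 was smaller than that in PLKO by 0.67 on the log2 scale (interaction -0.67 ± 0.123, adjusted p = 0.0412). That interaction ended at an adjusted p over 0.05 when any 1 of the 8 arrays was left out, with an adjusted p of up to 0.224.

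CACNA2D2 encodes the alpha 2 delta 2 subunit, a close relative of the first that also binds gabapentin. It lay at 7.81 and 7.80 in PLKO NDF and at 7.41 and 7.48 in V71 NDF. In DF it lay at 8.67 and 8.74 in PLKO and at 9.07 and 8.87 in V71. V71 was thus below PLKO before differentiation and above it afterwards, by -0.36 (adjusted p = 0.0926) and 0.27 (adjusted p = 0.163), neither of them called. Differentiation raised CACNA2D2 in both lines, by 0.90 in PLKO (adjusted p = 0.000152) and by 1.52 in V71 (± 0.0919, 2.877-fold, adjusted p = 7.68e-06), the largest rise among the 48 genes in V71. The larger rise in V71 did not pass the interaction test (0.62, adjusted p = 0.0713). CACNA2D3 was below the lower quartile of the arrays throughout, and CACNA2D4 lay between 4.16 and 4.56 with no called difference.

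The beta subunits measured, CACNB1, CACNB2 and CACNB3, gave line differences between -0.28 and 0.15 in NDF and between -0.10 and 0.12 in DF. None was called by limma in any comparison, with or without moderated variances, and across the line comparisons CACNB2 in NDF alone had an unadjusted p under 0.05. Upon differentiation CACNB3, the beta subunit typical of neurons, gave 0.40 in PLKO (adjusted p = 0.0262) and 0.37 in V71 (adjusted p = 0.0363), under the fold threshold in both. CACNB1 gave 0.42 in PLKO (adjusted p = 0.0335) and 0.35 in V71 (adjusted p = 0.0694).

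The gamma genes measured were CACNG2, CACNG4, CACNG5, CACNG7 and CACNG8, whose products act mainly as partners of AMPA-type glutamate receptors (TARPs). CACNG4 lay at 8.58 and 8.59 in PLKO NDF and at 8.23 and 8.31 in V71 NDF. In DF it lay at 9.27 and 9.23 in PLKO and at 9.21 and 8.86 in V71. All DF arrays were above all NDF arrays, and V71 was below PLKO in each condition by less than the threshold (-0.32 in NDF, adjusted p = 0.258, and -0.22 in DF, adjusted p = 0.395). CACNG4 rose by 0.67 in PLKO (adjusted p = 0.00405) and by 0.77 in V71 (adjusted p = 0.00174), and both calls ended without moderation (adjusted p = 0.0773 and 0.0576). CACNG2 (0.58, adjusted p = 0.0164) and CACNG7 (0.54, adjusted p = 0.00175) passed the p threshold and not the fold in PLKO, and the same genes did so in V71, with 0.46 (adjusted p = 0.0477) and 0.41 (adjusted p = 0.00773).

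RYR2 (probe set 7910792) encodes the ryanodine receptor best known from heart and also found in brain, which opens the calcium store when calcium enters. Its NDF values were 3.76 and 3.73 in PLKO and 3.18 and 3.02 in V71. Its DF values were 4.78 and 4.83 in PLKO and 3.42 and 3.29 in V71. The V71 cells were the lower ones in both conditions, and in NDF they lay close to the lower quartile of the arrays, where background can narrow a difference. The group means in PLKO NDF (3.75) and V71 DF (3.35) were low as well. Only PLKO DF (4.80) lay above the mean level of the muscle markers given below (3.80 to 3.98). The NDF line difference and the V71 change are thus differences between low values. RYR2 was lower in V71 in NDF (-0.65 ± 0.0921, adjusted p = 0.00507) and, by 2.735-fold, in DF (-1.45 ± 0.0921, adjusted p = 3.09e-05). It rose in PLKO upon differentiation (1.06, adjusted p = 5.31e-05), and the V71 change of 0.25 did not pass the test (adjusted p = 0.116). The difference between these changes was called (interaction -0.81 ± 0.13, adjusted p = 0.0215). The interaction was lost in 7 of the 8 fits that left out an array, V71 NDF replicate 3 being the exception, with an adjusted p of up to 0.211 over all settings.

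The other ryanodine receptor genes, RYR1 and RYR3, stayed between 3.06 and 3.67 on every array, and their line differences ran from -0.06 to -0.02. Of the inositol trisphosphate receptors, ITPR2 stood at 5.71 and 5.51 in PLKO NDF and at 6.15 and 6.21 in V71 NDF. Its DF values were 5.98 and 6.05 in PLKO and 5.83 and 6.01 in V71. The lines were apart in NDF and overlapped in DF, with a NDF difference of 0.57 (adjusted p = 0.0184) just under the fold threshold, a DF difference of -0.09 (adjusted p = 0.739) and an interaction of -0.66 (adjusted p = 0.0874). ITPR1, the main neuronal form, gave 0.15 in NDF (adjusted p = 0.544) and 0.24 in DF (adjusted p = 0.205), and ITPR3 gave -0.16 and 0.04.

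SLC8A1 (probe set 8051762) encodes NCX1, an exchanger of the plasma membrane that trades sodium inward for calcium outward. It stood at 5.96 and 6.10 in PLKO NDF and at 7.33 and 7.17 in V71 NDF. In DF it stood at 5.53 and 5.70 in PLKO and at 7.44 and 7.47 in V71. All 4 V71 arrays were above all 4 PLKO arrays. SLC8A1 was 2.336-fold higher in V71 in NDF (1.22 ± 0.1, adjusted p = 0.000151) and 3.588-fold higher in DF (1.84 ± 0.1, adjusted p = 1.19e-05), the largest difference between the lines among the 48 genes. Its changes upon differentiation were -0.42 in PLKO (adjusted p = 0.024, under the fold threshold) and 0.20 in V71 (adjusted p = 0.26). These changes differed by 0.62, which did not pass the test (adjusted p = 0.107).

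SLC8A3 (probe set 7979888) encodes NCX3, a second exchanger of nerve and muscle cells. Its NDF values were 6.32 and 6.14 in PLKO and 6.38 and 6.46 in V71. Its DF values were 6.69 and 6.81 in PLKO and 6.04 and 6.01 in V71. V71 was slightly above PLKO before differentiation and below it afterwards. The NDF difference of 0.19 was not called (adjusted p = 0.462), and in DF SLC8A3 was lower in V71 (-0.73 ± 0.0948, adjusted p = 0.0023). It moved in opposite directions upon differentiation, by 0.52 in PLKO (adjusted p = 0.00565) and by -0.39 in V71 (adjusted p = 0.0236), each past the p threshold and under the fold. The difference between the changes was the largest interaction of the list (-0.91 ± 0.134, adjusted p = 0.0124). It lost its call without PLKO NDF replicate 3, V71 NDF replicate 3 or V71 DF replicate 1, with an adjusted p of up to 0.202 over all settings. SLC8A2, which encodes the brain exchanger NCX2, gave 0.25 in NDF (adjusted p = 0.429) and 0.26 in DF (adjusted p = 0.32).

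The pumps did not differ between the lines by the rule. For the SERCA genes ATP2A1, ATP2A2 and ATP2A3, the line differences ran from 0.02 to 0.19 in NDF and from -0.10 to 0.20 in DF. None of the 3 was called by limma in any comparison, with or without moderation, and none had an unadjusted p under 0.05 between the lines. For the plasma membrane pumps the line differences ran from -0.22 to 0.23 in NDF and from -0.17 to 0.28 in DF, with unadjusted p under 0.05 for 2 of the 4 genes in each condition.

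CAMK4 (probe set 8107307) encodes a CaM kinase of the nucleus that phosphorylates the transcription factor CREB. It stood at 7.06 and 7.07 in PLKO NDF and at 7.62 and 7.60 in V71 NDF. Its DF values were 6.61 and 6.63 in PLKO and 7.34 and 7.36 in V71. All V71 arrays were above all PLKO arrays, and within each line DF was below NDF. CAMK4 was higher in V71 in DF (0.73 ± 0.0777, adjusted p = 0.000729), and the NDF difference of 0.54 passed the p threshold (adjusted p = 0.00507) and not the fold. The changes upon differentiation were -0.44 in PLKO (adjusted p = 0.00465, under the fold) and -0.26 in V71 (adjusted p = 0.0605). They did not differ by the interaction test (0.19, adjusted p = 0.703).

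Of the other kinases and calcineurin genes none was called between the lines. CAMK2D gave -0.33 in NDF (adjusted p = 0.21) and 0.20 in DF (adjusted p = 0.415), and CAMK1D gave -0.11 and -0.34 (adjusted p = 0.727 and 0.0834). The CaM kinase kinase genes CAMKK1 and CAMKK2, whose products switch on CAMK1 and CAMK4, gave values from 0.05 to 0.21 in NDF and from -0.03 to 0.27 in DF. PPP3CA, the main catalytic subunit of calcineurin in neurons, lay at 7.58 and 7.64 in PLKO NDF and at 7.73 and 7.96 in V71 NDF, and at 7.62 and 7.69 in PLKO DF and 8.09 and 8.14 in V71 DF. The NDF difference of 0.24 did not pass the test (adjusted p = 0.332), and the DF difference of 0.46 passed the p threshold (adjusted p = 0.0254) and not the fold. PPP3CB, PPP3CC and the regulatory subunit PPP3R1 gave DF differences of 0.22, 0.02 and 0.28, none of which passed.

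**Figure D2:**
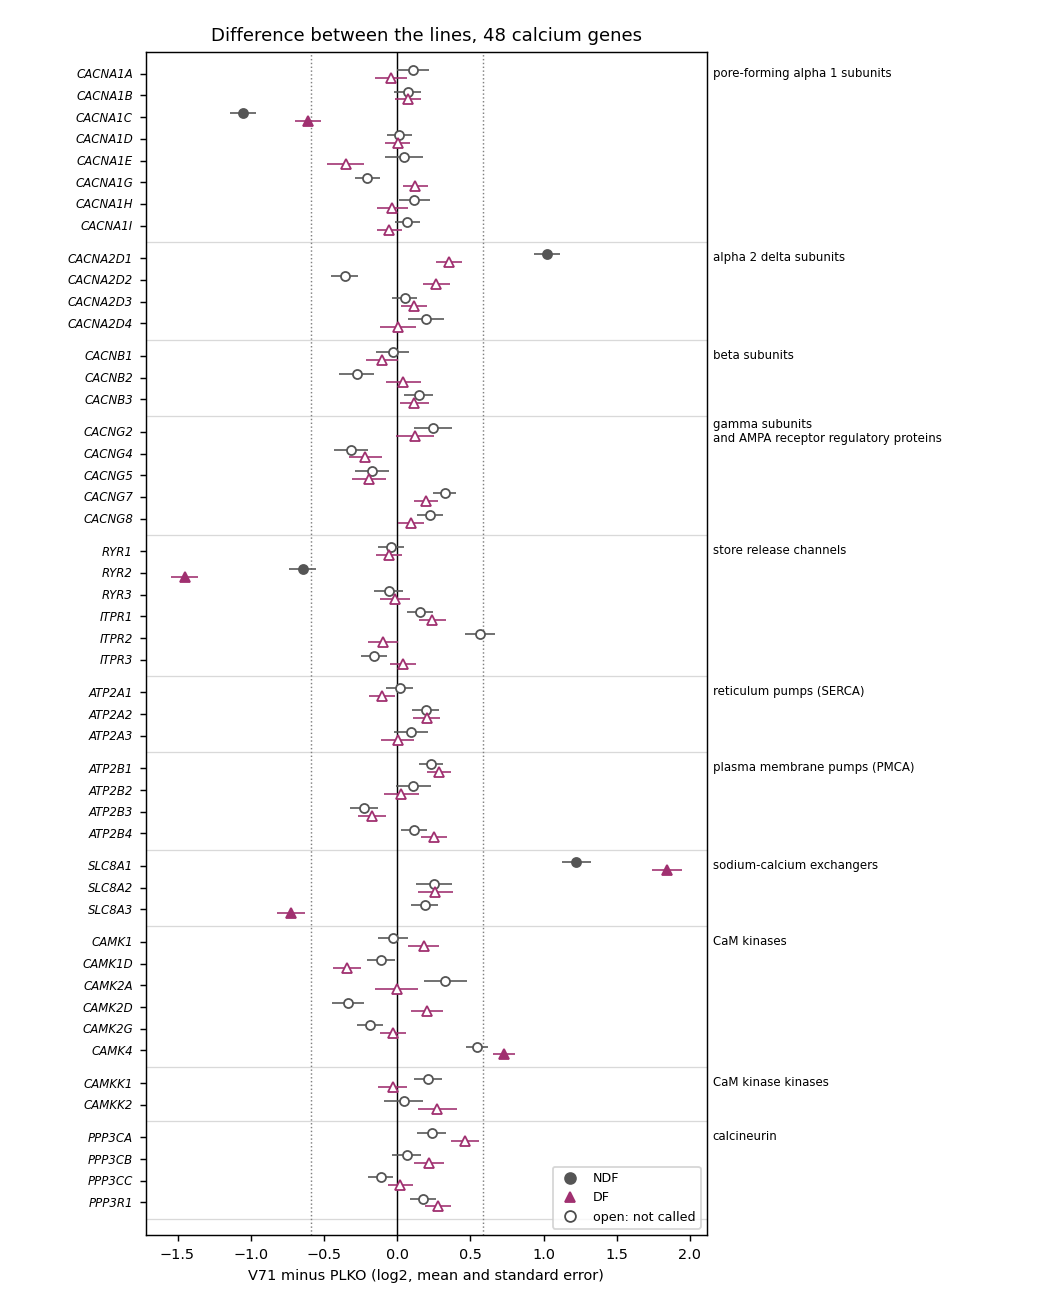
Difference between the lines for all 48 calcium genes, grouped by role, as V71 minus PLKO on the log2 scale with its standard error; circles are NDF, triangles DF, filled symbols called differences, and dotted lines the 1.5-fold threshold. Most genes lie between the dotted lines, and CACNA1C, CACNA2D1, RYR2, SLC8A1, SLC8A3 and CAMK4 hold the filled symbols.

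CACNA1C, CACNA2D1, RYR2, SLC8A1, CAMK4 and the related genes CADPS, GAP43 and NOS1 also stand in the text or gene lists that the study drew from these arrays, so their differences here are no independent evidence. Some markers of other states of the cell also differed between the lines. Of the markers read next, CDH11, EGFR, PDGFRA and TNC are themselves named by the study as affected. The marker counts are therefore no independent evidence either. Of 30 markers of substrate-adherent (S-type) neuroblastoma cells, a mesenchymal state found within such lines, 11 were lower and 0 higher in V71 in NDF by limma, with unadjusted p under 0.05 for 13 lower and 1 higher. In DF, 5 were lower and 0 higher, with unadjusted p under 0.05 for 9 and 1. The share called lower was 36.7% of the 30 in NDF and 16.7% in DF, beside 1.54% and 1.26% of all genes. Limma without moderation called 5 lower and 0 higher in NDF, and 1 lower and 0 higher in DF. Among the 30, 21 differences were negative and 9 positive in NDF (median -0.138). In DF the list was split, with 16 negative and 14 positive (median -0.0353). The mean level of the 30 markers was 5.24 on both PLKO NDF arrays, 4.61 to 4.69 on V71 NDF, 4.81 to 4.84 on PLKO DF and 4.51 to 4.62 on V71 DF. Between 4 and 6 of the 30 lay below the lower quartile in a group, ANXA1 and S100A11 in all 4 groups and VIM, DCN, LUM and NT5E with them in V71 DF. The part of this state in the differences of the calcium genes was not tested, and in RNA of whole cultures fewer cells of one kind and less RNA per cell cannot be told apart.

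The identity of the cells was checked with 18 markers of noradrenergic neuroblasts, of which only SLC18A2 lay below the lower quartile, in V71 DF. Their mean level was 7.54 to 7.62 in PLKO NDF, 7.82 to 7.90 in V71 NDF, 7.35 to 7.39 in PLKO DF and 7.55 to 7.62 in V71 DF. Of the 18, 4 were higher and 0 lower in V71 in NDF (unadjusted p under 0.05 for 8 and 1), and 2 were higher and 1 lower in DF. The share called higher was 22.2% in NDF and 11.1% in DF, beside 0.615% and 1.81% of all genes. The share called lower in DF was 5.56%, beside 1.26% of all genes. Because RYR2 and CACNA1C are also muscle genes, 20 markers of skeletal and cardiac muscle were read beside them. None was called by limma in any of the 5 comparisons, with or without moderation, between 0 and 2 had an unadjusted p under 0.05 in one direction, and their mean level was 3.80 to 3.98 on every array. Of 8 Schwann cell markers none was called either, with at most 1 at an unadjusted p under 0.05 and a mean level of 3.81 to 3.99.

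More of the calcium genes were called upon differentiation (18.8% in PLKO, 14.6% in V71) than between the lines (8.33% in NDF, 10.4% in DF). The same order held over all genes, with 7.04% in PLKO and 7.53% in V71 against 2.15% in NDF and 3.06% in DF. The calls of the calcium genes upon differentiation were all rises but that of CAMK1D in V71. In PLKO, 9 of the 48 genes rose and 0 fell, where 2.88% of all genes rose and 4.16% fell; limma without moderation called 6 and 0. In V71, 6 rose and 1 fell, where 3.98% of all genes rose and 3.55% fell. At an unadjusted p under 0.05, 22 changes were positive and 5 negative in PLKO and 22 and 4 in V71, beside 2747 and 2405 in PLKO and 2891 and 2455 in V71 among the 18377 genes. The called counts, not those at unadjusted p, are 18.8% of the 48 genes higher in PLKO, and 12.5% higher and 2.08% lower in V71. The median change was 0.156 in PLKO and 0.188 in V71, beside 0.0129 and -0.00355 over all genes. Both lines share the treatment and not the arrays, since each change is taken against the undifferentiated cells of its own line. Markers of cell state moved as well: of the 30 S-type markers 1 rose and 8 fell in PLKO and 2 rose and 2 fell in V71, with 6 interactions called higher and 0 lower (unadjusted p under 0.05 for 10 and 1, and 0 called without moderation). Of the 18 noradrenergic markers, 2 rose and 3 fell in PLKO and 2 rose and 7 fell in V71. As shares, 3.33% of the S-type markers rose and 26.7% fell in PLKO, with 6.67% each way in V71. The noradrenergic shares were 11.1% and 16.7% in PLKO and 11.1% and 38.9% in V71. The S-type interactions called higher were 20%, beside 1.09% of all genes. The part of these markers in the changes of the calcium genes was not tested.

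**Figure D3:**
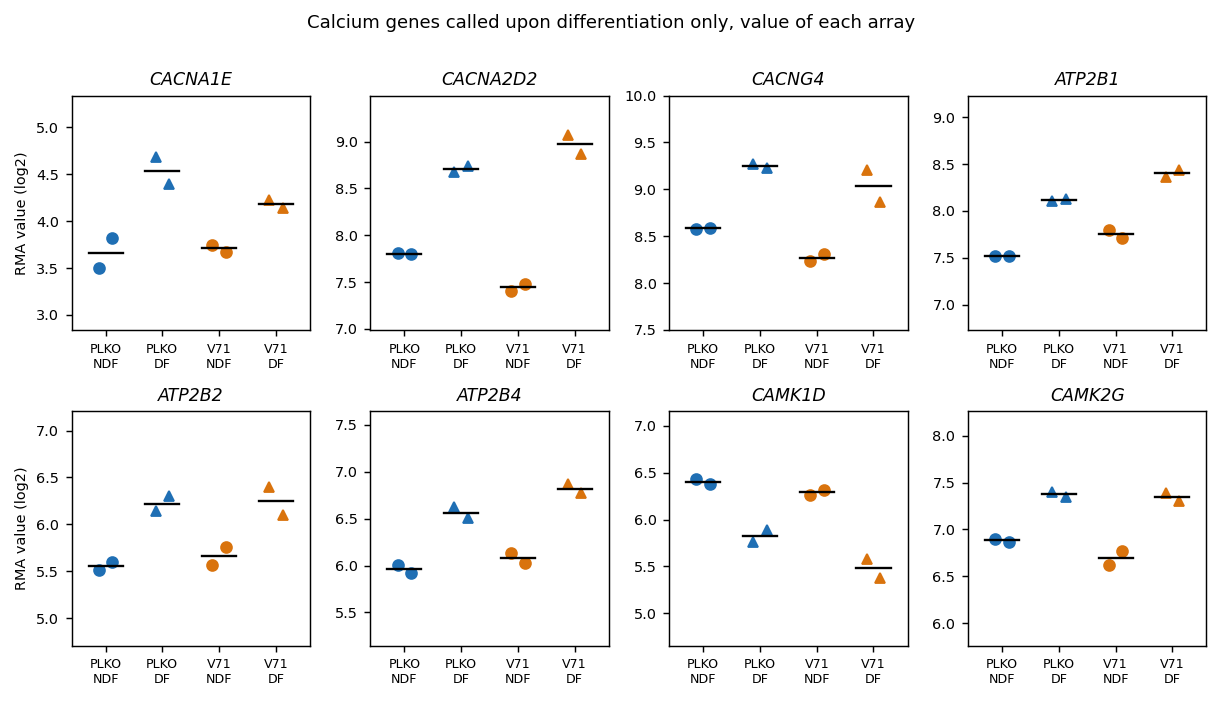
Value of each array (points; circles NDF, triangles DF; blue PLKO, orange V71) and group mean (bars) of the 8 calcium genes called upon differentiation and not between the lines. Vertical axes show RMA values (log2) and differ between genes; CAMK1D alone of the 8 was lower in DF than in NDF.

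CACNA1E, the pore gene of the R-type channel, lay at 3.50 and 3.82 in PLKO NDF and at 3.75 and 3.67 in V71 NDF. Its DF values were 4.68 and 4.40 in PLKO and 4.23 and 4.14 in V71. All DF arrays were above all NDF arrays. It rose by 0.87 ± 0.128 in PLKO (adjusted p = 0.00159, and 0.0655 without moderation). The V71 change of 0.48 passed the p threshold (adjusted p = 0.0375) and not the fold. Both NDF means (3.66 in PLKO and 3.71 in V71) lay under the mean level of the muscle markers (3.80 to 3.98). Both changes thus started from low values. The T-type gene CACNA1G ran the other way, with -0.51 in PLKO (adjusted p = 0.00347) and -0.18 in V71 (adjusted p = 0.234), under the fold in both. Together with CACNA1C these were the pore genes that passed the p threshold upon differentiation in either line.

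Among the groups of the list, the plasma membrane pumps had the highest share of genes called upon differentiation. This ranking was read from the values, and the groups are small. In PLKO 3 of the 4 pumps rose (75%) and in V71 2 of the 4 did (50%), beside 2.88% and 3.98% of all genes. All 4 changes were positive in both lines. ATP2B4, the widely expressed PMCA4, lay at 6.01 and 5.92 in PLKO NDF and at 6.13 and 6.03 in V71 NDF, and at 6.62 and 6.51 in PLKO DF and 6.87 and 6.77 in V71 DF. The DF arrays were above the NDF arrays in both lines, with rises of 0.60 in PLKO (adjusted p = 0.00186) and 0.74 ± 0.0897 in V71 (adjusted p = 0.000528). ATP2B1, the housekeeping PMCA1, rose by 0.59 in PLKO (adjusted p = 0.0011) and by 0.65 in V71 (adjusted p = 0.000666). ATP2B2, the fast neuronal PMCA2, rose by 0.66 in PLKO (adjusted p = 0.00561) and gave 0.58 in V71 (adjusted p = 0.011), just under the fold. ATP2B3, the brain pump PMCA3, gave 0.17 in PLKO (adjusted p = 0.339) and 0.23 in V71 (adjusted p = 0.18). None of the 4 pumps had an interaction with an unadjusted p under 0.05, and no interaction of a pump was called without moderation. Limma without moderation called 2 of the 4 rises in each line. They were ATP2B1 (adjusted p = 0.012 in PLKO and 0.0116 in V71) and ATP2B4 (0.0285 and 0.02).

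The rises of the pumps in PLKO lay close to the 1.5-fold threshold, which is 0.585 on the log2 scale. No pump reached 2-fold in either line. ATP2B2 lost its call without moderation (adjusted p = 0.0931) and without PLKO NDF replicate 2 or PLKO DF replicate 2, and ATP2B4 without PLKO NDF replicate 3 or PLKO DF replicate 1. ATP2B1 kept its call in both lines in every fit that left out an array.

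Among the kinases, CAMK1D fell and CAMK2G rose upon differentiation in V71. CAMK1D, a kinase of the CaMKI class that takes part in dendrite growth, lay at 6.43 and 6.38 in PLKO NDF and at 6.26 and 6.32 in V71 NDF, and at 5.76 and 5.89 in PLKO DF and 5.58 and 5.38 in V71 DF. All DF arrays were below all NDF arrays. It fell by 0.81 on the log2 scale in V71 (-0.81 ± 0.0965, adjusted p = 0.000462), and the PLKO change of -0.58 passed the p threshold (adjusted p = 0.00346) and lay just under the fold. CAMK2G, the gamma chain of CaMKII, rose by 0.65 in V71 (adjusted p = 0.00108) and gave 0.49 in PLKO (adjusted p = 0.00531). CAMK2A and CAMK2D gave changes between -0.19 and 0.35 with no call, and the calcineurin genes gave positive changes throughout, from 0.04 to 0.31 in PLKO and from 0.17 to 0.46 in V71, with no call. The highest of these, PPP3CB in V71 with 0.46, passed the p threshold (adjusted p = 0.0138).

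**Figure D4:**
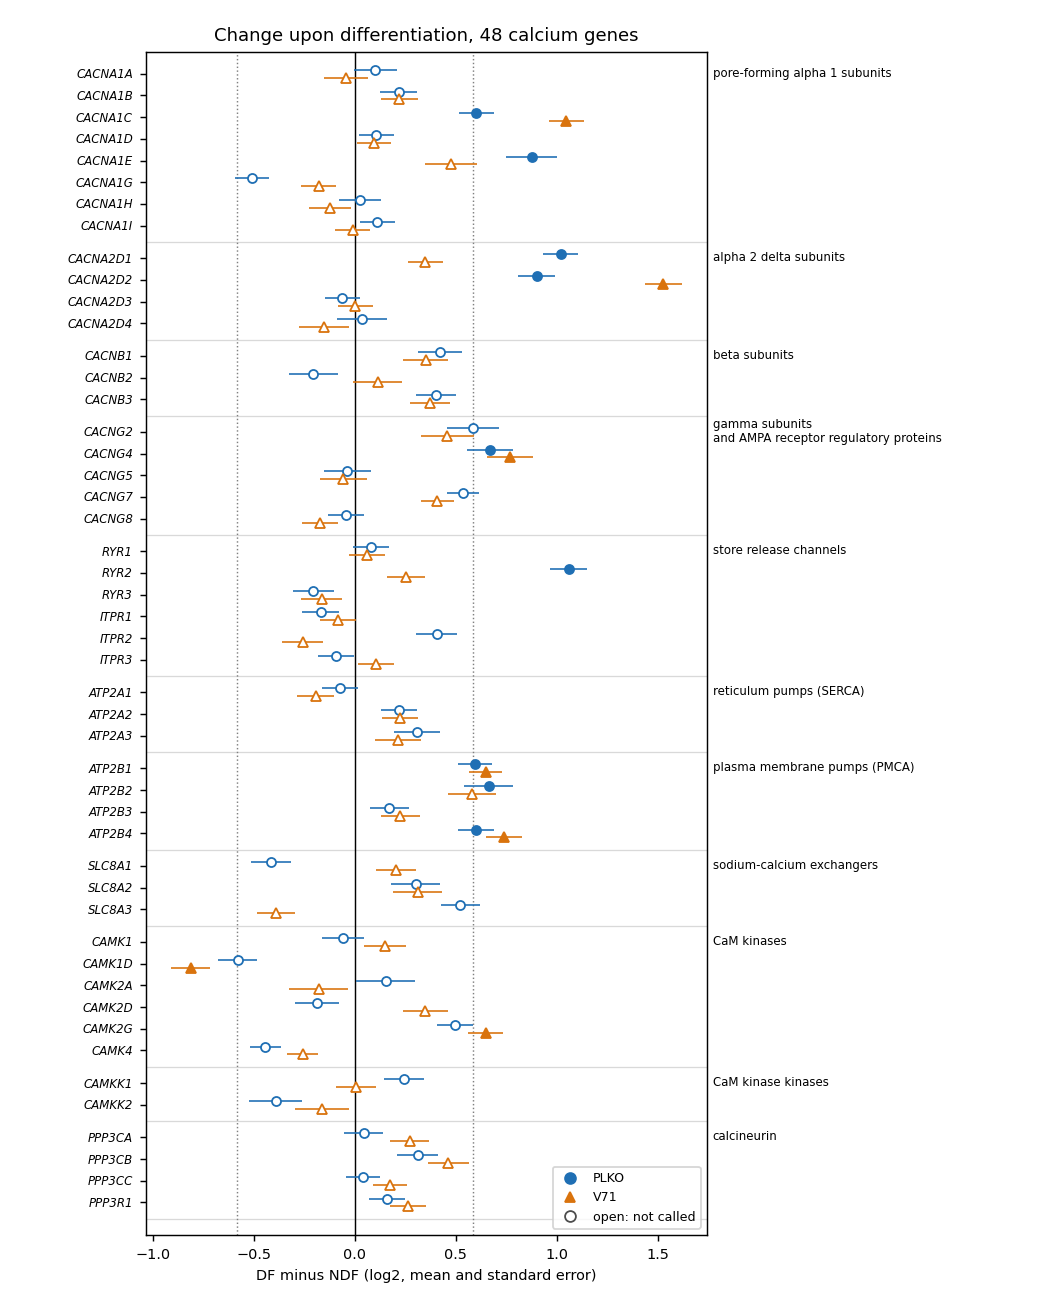
Change upon differentiation of all 48 calcium genes, grouped by role, as DF minus NDF on the log2 scale with its standard error; circles are PLKO, triangles V71, filled symbols called changes, and dotted lines the 1.5-fold threshold. Filled symbols stand on the right except that of CAMK1D in V71.

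Whether the lines differed in their change was tested by the interaction, given as the change in V71 minus that in PLKO. Of the 48 genes 0 were called higher and 3 lower, where 1.09% of all genes were higher and 0.305% lower. At an unadjusted p under 0.05, 5 were higher and 4 lower, and limma without moderation called 0 of the 48, and 3 higher and 0 lower among all genes. The 3 genes were CACNA2D1, RYR2 and SLC8A3, with the values given above, and each has a different role: an auxiliary channel subunit, a store release channel and an exchanger. CACNA2D1 and RYR2 changed less in V71 than in PLKO, and SLC8A3 changed in the opposite direction. When 1 array was left out, 0 or 1 of the 3 interactions kept their call.

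**Figure D5:**
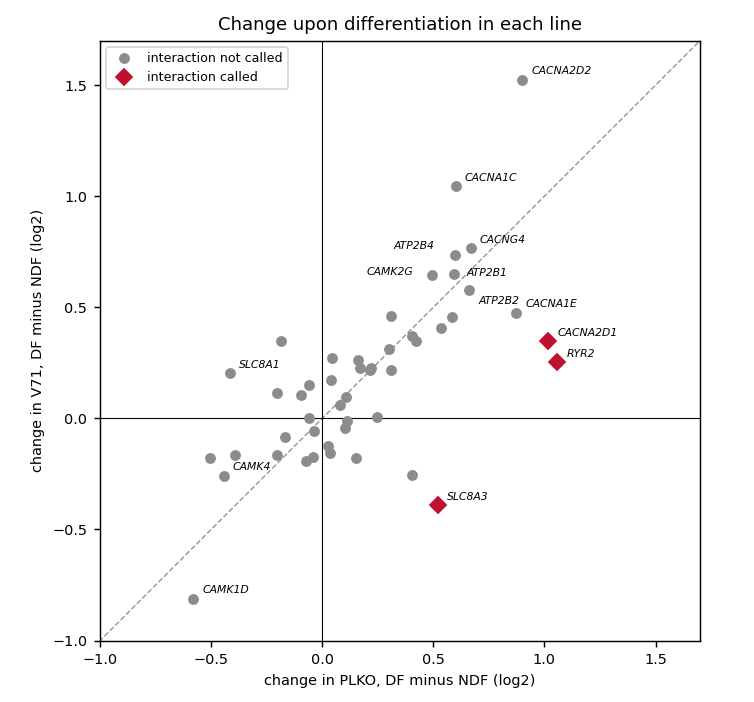
Change upon differentiation in PLKO (horizontal) against that in V71 (vertical) for the 48 calcium genes, in log2 units; each point is 1 gene, diamonds mark a called interaction, and the dashed line marks equal change. CACNA2D1, RYR2 and SLC8A3 lie below the dashed line with a called interaction. ITPR2 lies about as far below it as CACNA2D1 (-0.66 and -0.67) without one. CACNA2D2, SLC8A1, CAMK2D and CACNA1C lie above it, also without a called interaction.

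Around the 48 genes, 107 of 113 further genes of calcium biology were analysed, the calcium buffers and sensors, store-operated entry, mitochondrial uptake, proteins of the reticulum, potassium-dependent exchangers, targets of calmodulin and calcineurin, and proteins that act on or beside the channels. Calmodulin itself was not analysed here. In NDF 2 were higher (1.87%) and 1 lower (0.935%) in V71, beside the 0.615% and 1.54% of all genes given above. In DF 7 were higher (6.54%) and 1 lower (0.935%), beside 1.81% and 1.26%. Upon differentiation 4 rose (3.74%) and 5 fell (4.67%) in PLKO, near the 2.88% and 4.16% of all genes, and 11 rose (10.3%) and 5 fell (4.67%) in V71, beside 3.98% and 3.55%. The interaction was called higher for 7 (6.54%) and lower for 1 (0.935%), beside 1.09% and 0.305%. Without moderation, 2 higher and 0 lower were called in NDF, 4 and 0 in DF, 2 and 3 in PLKO, 8 and 3 in V71, and none of the 8 interactions, whose adjusted p then lay between 0.0637 for CADPS and 0.357 for GEM. The groups without a call between the lines were store-operated entry, mitochondrial uptake and the potassium-dependent exchangers, with 9, 7 and 5 genes, of which 1, 1 and 0 in NDF and 2, 2 and 1 in DF had an unadjusted p under 0.05.

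Among the sensors and the proteins of the reticulum, VSNL1 and JPH1 were called in both conditions. VSNL1, the neuronal calcium sensor visinin-like 1, stood at 5.39 and 5.49 in PLKO NDF and at 7.01 and 6.98 in V71 NDF, and at 3.79 and 3.94 in PLKO DF and 5.61 and 5.53 in V71 DF. V71 was above PLKO in each condition, by 1.56 in NDF (adjusted p = 1.98e-05) and 1.71 in DF (adjusted p = 1.02e-05), and VSNL1 fell in both lines, by 1.57 in PLKO and 1.43 in V71. JPH1, a junctophilin that ties the reticulum to the plasma membrane, was lower in V71 in NDF (-0.63, adjusted p = 0.0384) and in DF (-0.60, adjusted p = 0.0331), and both calls ended without moderation (adjusted p = 0.291 and 0.245). KCNIP4, a sensor that binds potassium channels, lay between 2.88 and 3.39 on the other arrays and at 4.04 and 4.06 in V71 DF, which gave a DF difference of 0.76 (adjusted p = 0.00187) and an interaction of 0.72 (adjusted p = 0.046). Both NDF means of KCNIP4 (2.90 and 2.95) lay below the lower quartile of the arrays, where background can set the size of a change, and its DF call ended without moderation (adjusted p = 0.0677).

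Among the targets of calmodulin, NOS1, the neuronal nitric oxide synthase, had the largest differences. It stood at 4.14 and 4.06 in PLKO NDF, at 3.61 and 4.12 in V71 NDF, at 6.29 and 6.45 in PLKO DF and at 8.76 and 8.66 in V71 DF. The lines overlapped in NDF and stood apart in DF, by 2.34 (adjusted p = 3.09e-05), with an interaction of 2.58 (adjusted p = 0.000392). GAP43, a calmodulin-binding protein of the growth cone, fell by 0.74 in PLKO and rose by 0.81 in V71 upon differentiation (interaction 1.55, adjusted p = 0.000458). DAPK1, a calmodulin-regulated death kinase, fell by 1.31 in PLKO and by 0.67 in V71 (interaction 0.64, adjusted p = 0.0434).

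Of the proteins that act on or beside the channels, CADPS, STAC, RIMS1 and GEM were called. CADPS, a priming factor of dense-core vesicles, was higher in V71 in NDF by 2.09 (adjusted p = 5.83e-06) and rose by 2.96 in PLKO and 0.60 in V71, an interaction of -2.36 (adjusted p = 9.28e-05). STAC, an adaptor of L-type channels, was higher in V71 in DF by 0.86 (adjusted p = 0.000527, interaction 0.73, adjusted p = 0.0261). RIMS1, a scaffold of the release site, was higher in V71 in DF by 0.94 (adjusted p = 0.000815, interaction 1.10, adjusted p = 0.00671). GEM, a small GTPase that inhibits channels through their beta subunits, was higher in V71 in DF by 1.06 (adjusted p = 0.00097, interaction 0.94, adjusted p = 0.0343). The values of STAC in V71 DF were 7.01 and 7.06, those of RIMS1 6.02 and 6.13 and those of GEM 7.94 and 8.27, each above every other array of its gene. The DF calls of RIMS1 and GEM ended without moderation (adjusted p = 0.0623 and 0.0788).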

How the data were processed

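The authors computed RMA values in Partek Genomics Suite 6.5, and the deposited log2 values of the 8 arrays were analysed without further normalization. The genome build of the array annotation is not given in the sources used here. A single gene is annotated to 19310 of the 28869 rows, several to 1752 and none to 7807. Where a gene had several rows (685 genes), the brightest on average stood for it. All rows entered the fit and the adjustment of p.

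Group means were fitted in limma 3.58.1 under R 4.3.3 with eBayes moderation (residual degrees of freedom 4, prior 5.43, median residual SD 0.0996), and p values were adjusted by Benjamini-Hochberg. The 5 contrasts were the line difference in each growth condition, the change of each line, and the interaction. The fit was tested on simulated data. Samples were grouped by their titles, and 2 arrays per group limit the precision.

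The members, related genes and markers were chosen with earlier results of these data known, and no list was tested as a set. Every member could be named; all 8 values were due for members called between the lines or in the interaction and for the most changed of each family among those called upon differentiation only, and related genes were named where called between the lines or in the interaction. All 8 values of ITPR2 and PPP3CA, and the plotted values of other members, were added after seeing them. Promoter windows are from RefSeq (GRCh38.p14), where 35 of the 48 genes matched. The alternatives were variances without moderation (the analysis of variance in the methods), a trended robust prior, quantile normalization repeated, medians centred, cyclic loess, removal of rows under the 33rd percentile of brightness, adjustment over single-gene rows, averaging the rows of a gene, weights for arrays, no fold threshold and one of 2, fits of the compared arrays alone, blocking on the replicate number, and omission of single arrays.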

Additional observations from a re-analysis of the deposited data

Results flagged for a closer look

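In 3 calcium genes the change upon differentiation differed between the lines by the interaction test. The change in V71 minus that in PLKO was -0.67 for CACNA2D1, -0.81 for RYR2 and -0.91 for SLC8A3 on the log2 scale, with adjusted p of 0.0412, 0.0215 and 0.0124 in limma. None of the 3 passed without moderation of the variances (adjusted p = 0.202, 0.211 and 0.202).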

How the results depend on the processing

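No single call reversed under the 22 alternative settings, and 14 of the 28 calls held under all that apply to them except a threshold of 2-fold. Without moderation, 2 genes were called in NDF (RYR2 and SLC8A1 lost, adjusted p = 0.0931 and 0.0517), 3 in DF (CACNA1C and SLC8A3 lost, adjusted p = 0.0527 and 0.0681) and 0 in the interaction, and CACNA1E, CACNG4 and ATP2B2 in PLKO and CACNG4 in V71 were lost. With a threshold of 2-fold, 2 were called in DF, 2 upon differentiation in PLKO, 2 in V71 and 0 in the interaction. With no fold threshold, 20 were called in PLKO and 15 in V71, in place of 9 and 7. With each array left out in turn, the counts ran from 3 to 4 in NDF, 4 to 5 in DF, 8 to 10 in PLKO, 6 to 9 in V71 and 0 to 1 in the interaction; there a group left with 1 array was assumed to vary like the others. RYR2 in NDF lost its call without PLKO NDF replicate 2 or 3 or V71 NDF replicate 3, CACNA1C in DF without V71 DF replicate 2 and CAMK2G in V71 without V71 NDF replicate 2. CACNA1C in PLKO lost its call without PLKO NDF replicate 3 or PLKO DF replicate 2, and under cyclic loess, as ATP2B4 did. Median centring ended the interaction of CACNA2D1 (adjusted p = 0.0761). The cause of these losses was not tested. Replicates share numbers within NDF and within DF, but deviations of same-numbered arrays correlated at -0.176 and 0.188, so the numbers are not taken to pair them; the replicate block gave 4 calls in NDF and 5 in DF, as without it. With the numbers crossed in NDF, chosen after seeing the data, it gave 4. Values near the lower quartile of an array, such as RYR2 in V71, may be compressed by background.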
